A study of Mus musculus with 9 samples.

Results

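Carbonic anhydrase transcripts were counted in mouse acute myeloid leukaemia cells before and after doxycycline, which keeps the oncogenic receptor FLT3-ITD switched on, was removed. The genes described are Car1, Car2, Car4, Car5b, Car9, Car12 and Car13, chosen by symbol, 7 of the 24756 rows of the count table. Car4 leads them because it had one of the largest falls between cells with and without doxycycline, so its own fall is given below as a description, with no test. The other isozymes were taken for comparison because they belong to the family. The table holds 9 further carbonic anhydrase symbols, which are given by their counts.

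The line was made from mouse fetal liver cells with a pair of retroviral vectors. One carries Luc2 and, behind an IRES, MLL-AF9, a leukaemogenic fusion protein made all the time. The other carries DsRED and, behind an IRES, FLT3-ITD, a mutant growth factor receptor active without its ligand, under a TRE-tight promoter that needs doxycycline. All groups therefore carry MLL-AF9 and both vectors. ON cells were kept in 1 µg/mL doxycycline, and OFF24 and OFF48 cells were washed and grown without it for 24 h and 48 h, all under 10% carbon dioxide. Each group has 3 libraries of 3' mRNA sequencing, a method that reads the 3' end of polyadenylated transcripts. The groups differ in both FLT3-ITD and doxycycline, whose parts cannot be told apart here, and whether the cells are 1 clone and whether replicates are separate cultures is not given in the sources used here, so p-values measure only the spread between these libraries, which may be technical.

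Carbonic anhydrases are zinc enzymes that turn carbon dioxide and water into bicarbonate and a proton, and back. The isozymes differ mainly in where they sit. Car1, Car2 and Car13 are cytosolic, Car5b is mitochondrial, Car9 and Car12 span the cell membrane with the active site outside, and Car4 is held on the outer surface by a glycosylphosphatidylinositol (GPI) anchor. Car1 and Car2 are well known from red blood cells, and Car9 is a textbook target of the hypoxia-inducible factors (HIF).

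Library totals ran from 1329296 to 4038456 counts, the lowest in OFF48 replicate 2, and 10215 genes passed the filter on low counts and were tested. Levels are given as CPM, the count scaled to library size after TMM normalisation. A limit of 3 counts, which a count of 0 allows, stood between 0.737 and 2.25 CPM per library and covers counting error only. Native Flt3 had 2 to 10 counts per library and was not tested. A vector transcript ends in vector sequence, so these counts do not check the loss of the transgene. All 9 listed myeloid markers had counts, with a summed level of 2531 to 6262 CPM per library. Among 12 erythroid markers, 7 had no count in any library, the globin genes Hbb-bs and Hbb-bt included, and the summed level was at most 1.5 CPM. Of 7 endothelial markers, Cdh5, Tek and Cldn5 had no count, while Pecam1 had 1150 counts and Emcn 73 over the 9 libraries.

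The promoters of the 3 isozymes of the chosen set that were tested are shown because these genes differed in how far they moved. Each run is 300 bases in RefSeq's GRCm38.p6 table, from 250 bases before the annotated start on, 5' to 3' on the gene's plus strand. Capitals mark matches, on either strand, to any of 5 motifs. For STAT factors the motif was TTCNNNGAA. For MYC it was the E-box CACGTG. The core bound by HIF was searched as ACGTG, which lies within every E-box of that kind. For ETS factors it was CGGAAG. For ATF4 with C/EBP it was TGATGNAA.
Car4, chr11:84957504-84957803: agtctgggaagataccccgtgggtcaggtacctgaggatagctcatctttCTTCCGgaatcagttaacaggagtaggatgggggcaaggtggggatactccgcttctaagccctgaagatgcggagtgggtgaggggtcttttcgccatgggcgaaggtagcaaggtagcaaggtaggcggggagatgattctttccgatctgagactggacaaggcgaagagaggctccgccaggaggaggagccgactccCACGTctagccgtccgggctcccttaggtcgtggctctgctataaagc
Car12, chr9:66713436-66713735: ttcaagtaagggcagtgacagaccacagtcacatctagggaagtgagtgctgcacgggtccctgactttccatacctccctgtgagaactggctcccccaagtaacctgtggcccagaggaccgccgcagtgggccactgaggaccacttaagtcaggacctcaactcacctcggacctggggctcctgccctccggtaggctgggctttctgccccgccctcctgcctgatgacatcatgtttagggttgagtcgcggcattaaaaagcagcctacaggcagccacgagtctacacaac
Car9, chr4:43506776-43507075: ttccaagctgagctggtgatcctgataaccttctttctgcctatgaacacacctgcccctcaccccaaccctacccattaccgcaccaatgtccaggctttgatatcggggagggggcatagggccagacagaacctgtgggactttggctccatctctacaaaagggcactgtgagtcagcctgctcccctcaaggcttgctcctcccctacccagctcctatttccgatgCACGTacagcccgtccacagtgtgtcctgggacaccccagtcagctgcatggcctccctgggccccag
In the Car4 promoter, CTTCCG, which is CGGAAG on the other strand, starts 200 bases before the annotated start, and CACGT, which is ACGTG on the other strand, begins at base 3 of the transcript. Car9 holds CACGT starting 18 bases before the start, and in this window of Car12 none of the 5 motifs was found. These starts are RefSeq's. By the GENCODE gene starts given below, the CACGT of Car4 lies before the gene and that of Car9 inside it. Among all 32817 promoters of the table, 16.85% hold CGGAAG, 19.62% ACGTG, 8.29% TTCNNNGAA, 7.15% CACGTG and 3.97% TGATGNAA. The GC content was 57.3% for Car4 and 58.3% for both Car9 and Car12, against a median of 52.7% over all promoters. A match is a run of letters and not evidence of binding. The table also holds Car5b, so 4 of the 7 genes matched.

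Car4 was by far the most abundant carbonic anhydrase of ON cells, and it fell at each step. In ON it stood at 1127, 954 and 1003 CPM in replicates 1, 2 and 3 (4419, 3884 and 2803 counts). In OFF24 it stood at 69.4, 69.7 and 61.4 CPM (166, 222 and 206 counts). In OFF48 it stood at 6.04, 1.5 and 6.12 CPM (18, 2 and 21 counts). No library of one group overlapped another group, and the lowest value came from the shallowest library. Of all tested genes 23.8% had OFF24 wholly below ON, 27.0% had OFF48 wholly below ON and 19.8% had OFF48 wholly below OFF24, from which nothing is read for a gene chosen by its fall. The group means were 1028 ± 89.2, 66.8 ± 4.73 and 4.55 ± 2.65 CPM (SD, n = 3). In ON, Car4 took 0.103% ± 0.00864 of all counts and ranked 155th by level among the 10215 tested genes. In OFF24 it ranked 2606th and in OFF48 9216th.

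The fall was of similar size on both days. Pooled over the libraries of a group, Car4 was 15.5-fold lower in OFF24 than in ON (95% exact Poisson interval 14.3 to 16.8, counting error only). It was 12.6-fold lower in OFF48 than in OFF24 (9.14 to 17.7), and 194-fold lower in OFF48 than in ON (143 to 271). On the log2 scale of the edgeR fit, the change was -3.95 ± 0.14 (SE) from ON to OFF24 and -3.66 ± 0.21 from OFF24 to OFF48. Averaged over each day, these are 1 halving per 6.08 h and 1 per 6.55 h. At 48 h 0.513% of the ON level was left by the same fit. By log2 fold change Car4 was the 2nd lowest of all tested genes in OFF24 against ON and the 4th lowest in OFF48 against ON. It was the 28th lowest in OFF48 against OFF24. These ranks restate what the gene was chosen for.

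**Figure D1:**
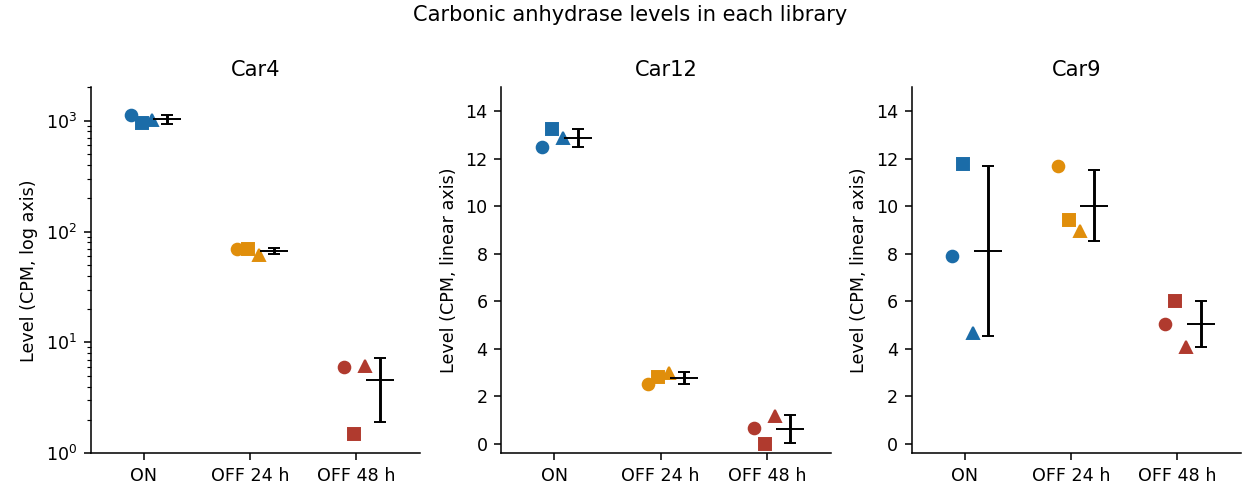
Level of Car4 (left, log axis), Car12 (middle) and Car9 (right, both linear axes) in CPM for each library, with circles, squares and triangles for replicates 1, 2 and 3 and the group mean with its SD (n = 3) as a black bar beside them. Car4 went from 954 to 1127 CPM in ON to at most 6.12 CPM in OFF48, Car12 fell likewise from a much lower level, and the Car9 libraries of ON and OFF24 overlap.

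The Car4 gene (ENSMUSG00000000805.18) spans bases 84957786 to 84966044 of chromosome 11, plus strand, in mm10 with GENCODE M21, and its longest coding transcript has 8 exons. Car12 spans 66713686 to 66766845 of chromosome 9 and Car9 43506966 to 43513729 of chromosome 4, both plus strand. No annotated gene overlaps Car4 or Car12, and the antisense gene Gm12454 overlaps the start of Car9 but not its last 400 bases. The last 400 bases of the coding transcripts of Car4, Car9 and Car12, where 3' reads arise, matched no other gene at 95% identity over at least 100 bases. No other row of the table had the counts of Car4, Car9 or Car12.

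Car12, the membrane isozyme also known from several tumours and epithelia, fell with Car4. It stood at 12.5, 13.3 and 12.9 CPM in the ON replicates (49, 54 and 36 counts). In OFF24 it stood at 2.51, 2.83 and 2.98 CPM (6, 9 and 10 counts), and in OFF48 at 0.671, 0 and 1.17 CPM (2, 0 and 4 counts). Every ON library was above every OFF24 library, and every OFF24 library above every OFF48 library. The same held for 23.8% of all tested genes in the first comparison and 19.8% in the second. The means were 12.9 ± 0.383, 2.77 ± 0.24 and 0.612 ± 0.585 CPM (SD, n = 3). OFF48 replicate 2, where a count of 0 allows up to 2.25 CPM, was too shallow to show reliably a level like that of the other OFF48 libraries.

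In the edgeR quasi-likelihood test, with Benjamini-Hochberg adjustment over all tested genes, Car12 was lower in OFF24 than in ON (log2 -2.19 ± 0.29, SE, edgeR adjusted p = 1.22e-05, lower in 3 of 3 libraries), where 17.4% of tested genes were called lower and 35.3% in either direction. It was lower in OFF48 than in ON (log2 -3.99 ± 0.40, edgeR adjusted p = 1.28e-07), where 23.9% of genes were called lower and 47.4% in either direction. Pooled over libraries the falls were 4.61-fold (95% exact Poisson interval 2.99 to 7.36) and 16.6-fold (7.45 to 46.1). Car12 reached the filter's minimum of 3.12 CPM in the ON libraries alone, so it could enter the test only by being high there. With no filter it was called as well (edgeR adjusted p = 6.49e-10 and 1.43e-17). The fall at 48 h read log2 -4.68 without OFF48 replicate 3, a fold more than 1.5 times larger, with 2 counts left in OFF48.

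From OFF24 to OFF48 Car12 fell again (log2 -1.81 ± 0.54, SE, edgeR adjusted p = 0.0219), with 11.2% of tested genes called lower and 21.1% in either direction. The call rests on 25 counts against 6. The edgeR adjusted p rose above 0.05 without OFF24 replicate 2 (0.0544) or 3 (0.0671), or OFF48 replicate 1 (0.0785) or 2 (0.0501), and with DESeq2 (0.0620). Without OFF48 replicate 3 it was 0.0253, with log2 -2.48.

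Car9, the other membrane isozyme, showed no fall like that of Car4 and Car12 at 24 h. It stood at 7.91, 11.8 and 4.65 CPM in the ON replicates (31, 48 and 13 counts), at 11.7, 9.42 and 8.94 CPM in OFF24 (28, 30 and 30 counts), and at 5.03, 6.0 and 4.08 CPM in OFF48 (15, 8 and 14 counts). The ON libraries spread over the whole range of OFF24 and reached into that of OFF48, while OFF24 and OFF48 did not overlap, as was the case in either direction for 38.0% of all tested genes and in this direction for 19.8%. The means were 8.12 ± 3.57, 10.0 ± 1.48 and 5.04 ± 0.959 CPM (SD, n = 3). Car9 reached the filter's minimum in all 9 libraries.

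No change of Car9 was called at 24 h (0.24 ± 0.28 log2 units, SE, approximate 95% interval -0.31 to 0.78, edgeR adjusted p = 0.541). This interval leaves out a fall of the size of Car12's. At 48 h Car9 missed the threshold against ON (log2 -0.80 ± 0.33, interval -1.45 to -0.15, edgeR adjusted p = 0.0545). It passed without ON replicate 3 (log2 -1.04, edgeR adjusted p = 0.0103) or OFF48 replicate 2 (0.0472), or with no filter (0.0340). Between OFF24 and OFF48 it fell (log2 -1.03 ± 0.33, edgeR adjusted p = 0.0315). That call was lost without OFF24 replicate 1 (0.105), 2 (0.0665) or 3 (0.0574), without OFF48 replicate 1 (0.0793) or 3 (0.145), and with DESeq2 (0.0702) or the authors' normalised values (0.104).

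Set against each other within a library, the counts of the membrane isozymes changed order. The ratio of Car12 to Car9 counts was 1.58, 1.12 and 2.77 in the ON replicates, so the Car12 count was the higher in each. In replicate 2 it was so by only 54 against 48, within counting error. Genes can differ in how well their ends are captured, so a ratio near 1 does not settle which transcript was more abundant. In OFF24 the ratio was 0.214, 0.30 and 0.333, and in OFF48 0.133, 0 and 0.286, so the Car9 count was the higher in all 6 OFF libraries. The log2 ratio (0.5 added to each count) was lower by 2.54 in OFF24 and by 3.55 in OFF48 than in ON. The exact two-sided permutation p was 0.10 for both, the smallest that 3 against 3 libraries can give. Between OFF48 and OFF24 the libraries overlapped (exact permutation p = 0.20).

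**Figure D2:**
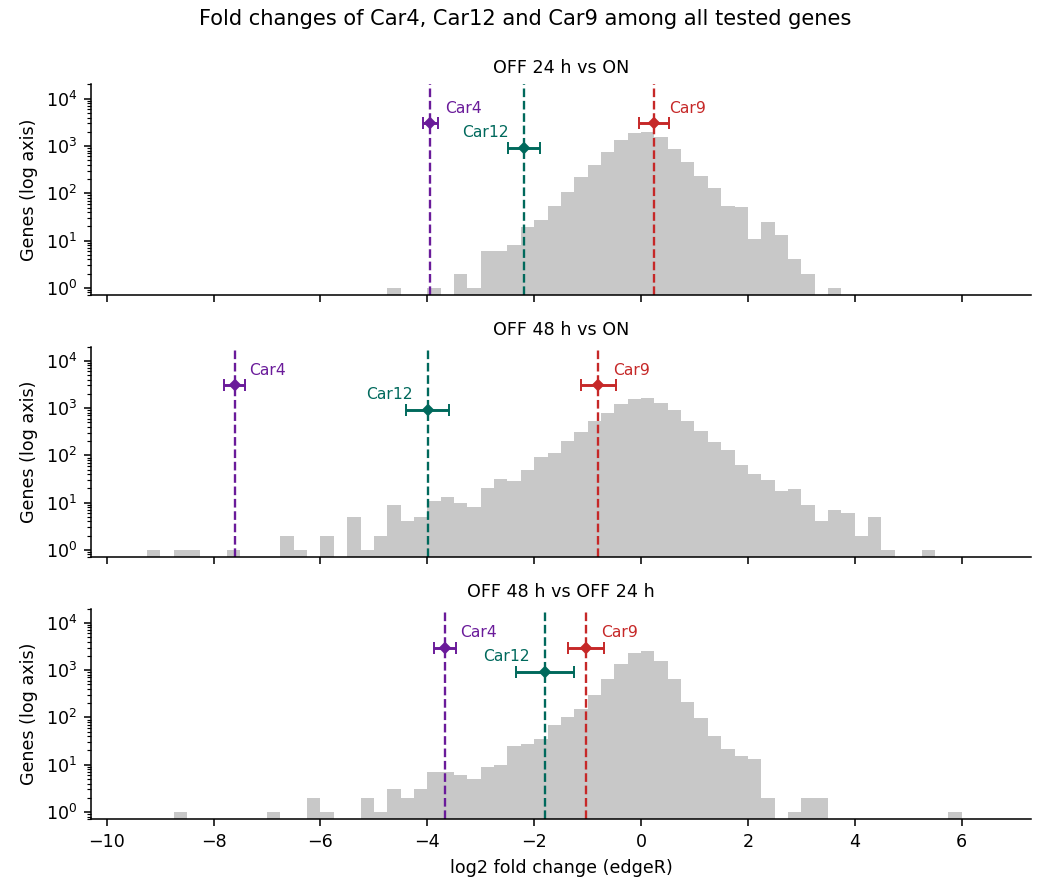
Histograms of the log2 fold changes of all 10215 tested genes (number of genes on a log axis) in each comparison, with dashed lines and diamonds (bars, SE) at Car4, Car12 and Car9. Car4 lies at -3.95, -7.61 and -3.66, in the far lower tail of each, Car12 at -2.19, -3.99 and -1.81, and Car9 at 0.24, -0.80 and -1.03.

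The remaining isozymes of the set were near or under the limit of detection in every group and did not pass the filter. Car2, the fast cytosolic enzyme, had 1 to 5 counts per library, 23 in all. Pooled by group it stood at 1.02 CPM in ON (95% exact Poisson interval 0.509 to 1.82), 0.783 in OFF24 (0.315 to 1.61) and 0.646 in OFF48 (0.210 to 1.51), intervals that overlap throughout. Car13, another cytosolic isozyme, had 0 to 2 counts per library, 9 in all, and mitochondrial Car5b had 1 count in OFF24 replicate 3 and no other. Car1 had no count in any library, which allows up to 0.278 CPM over the pooled ON libraries, 0.336 in OFF24 and 0.387 in OFF48. No change of these 4 genes was detectable at this depth. Car13, Car1, Car3 and Car2 lie side by side on chromosome 3 between 14641727 and 14900770 (mm10), where they are the 4 protein-coding genes, and all 4 had low counts. Car3, a muscle and fat isozyme outside the chosen set, had 57 counts in all.

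Of the 9 other carbonic anhydrase symbols 8 were too low to test, with 1 (Car14) to 57 (Car3) counts over the 9 libraries. Car15, which in the mouse is another GPI-anchored isozyme, was tested. It had 3, 2 and 2 counts in the ON replicates, 3, 16 and 5 in OFF24 and 14, 8 and 15 in OFF48. That is 0.657 ± 0.146 CPM (SD, n = 3) in ON, 2.59 ± 2.11 in OFF24 and 5.02 ± 0.861 in OFF48. It rose in OFF48 against ON (log2 2.82 ± 0.58, SE, edgeR adjusted p = 0.000543), where 23.4% of tested genes were called higher. Its OFF48 libraries all lay above its ON libraries, as in 25.6% of tested genes, while 52.5% were apart in either direction. The rise in OFF24 (log2 1.97 ± 0.64, edgeR adjusted p = 0.0212) was lost without OFF24 replicate 2 (log2 1.04, edgeR adjusted p = 0.302), the library with 16 counts, without ON replicate 1 (0.0515) or 2 (0.0720), and with the authors' normalised values (0.204). From OFF24 to OFF48 no change of Car15 was called (edgeR adjusted p = 0.213), but one was without OFF24 replicate 2 (log2 1.79, edgeR adjusted p = 0.0305). Car15 reached the filter's minimum in 0 of 3 ON, 1 of 3 OFF24 and 3 of 3 OFF48 libraries, so it could enter the test only by being high in OFF cells. With no filter it was called against ON as well (edgeR adjusted p = 0.0171 at 24 h and 2.87e-05 at 48 h). Its last 400 bases match the gene model Gm20518, so its level is uncertain.

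**Figure D3:**
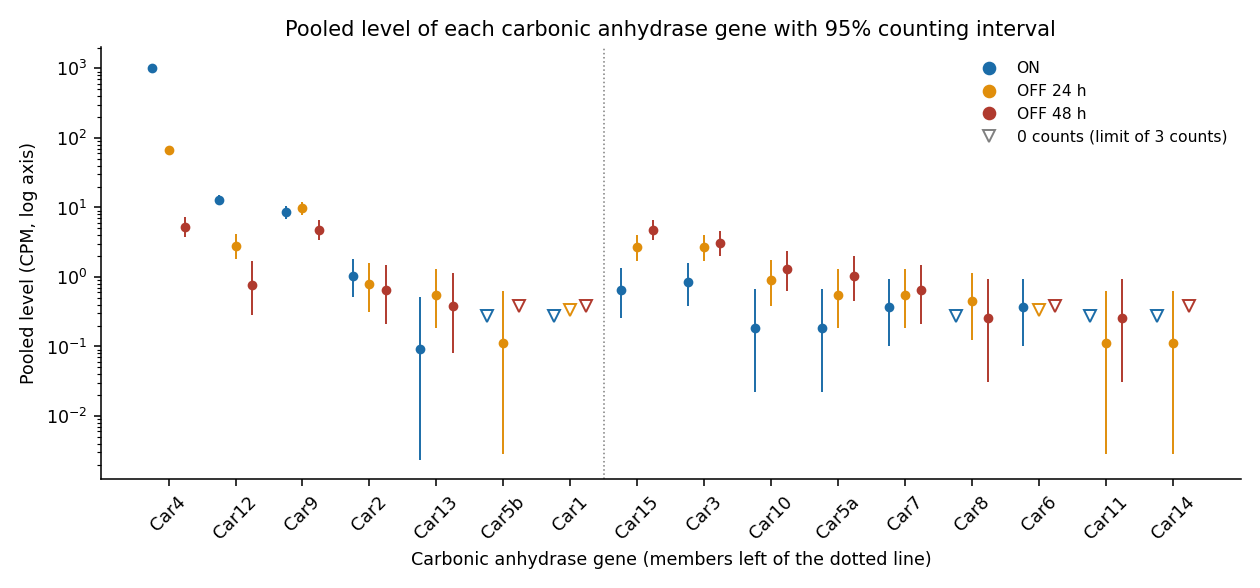
Level of each of the 16 carbonic anhydrase genes pooled over the 3 libraries of a group, in CPM on a log axis, with 95% exact Poisson intervals for counting error, and open triangles at the limit of 3 counts where a group had no count. The pooled level of Car4 is 1030 CPM in ON, where Car12 follows at 12.9 CPM. In OFF48 the interval of Car4 overlaps those of Car9, Car15 and Car3.

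These shifts changed the make-up of the family's transcripts. A 3' library gives reads from the transcript's end whatever its length, so CPM were set side by side without division by length, though genes can still differ in how well their ends are captured. Car4 made up 97.6% ± 0.506 (SD, n = 3) of all carbonic anhydrase counts in ON, 75.0% ± 0.451 in OFF24 and 20.0% ± 8.73 in OFF48. The summed level of the family was 1053 ± 87.6, 89.1 ± 6.53 and 21.3 ± 6.88 CPM. The sum without Car4 moved far less, from 24.7 ± 3.98 CPM in ON to 22.3 ± 1.86 in OFF24 and 16.8 ± 4.65 in OFF48. In ON the order was Car4, then Car12, then Car9, with the lowest Car12 library (12.5 CPM) just above the highest Car9 library (11.8 CPM). In OFF24 it was Car4, Car9, Car12 with no overlap among them, though Car3 (2.66 CPM) and Car15 (2.59 CPM) overlapped with Car12 (2.77 CPM). In OFF48 Car9, Car15 and Car4 overlapped (5.04, 5.02 and 4.55 CPM), and the order among them was within the spread. Car3 (2.46 CPM, 0 to 4.37 CPM per library) also reached into their range.

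Car4 and Car12 fell by different amounts. There were 90.2, 71.9 and 77.9 Car4 counts per Car12 count in the ON replicates and 27.7, 24.7 and 20.6 in OFF24. In OFF48 the ratio was 9.0 in replicate 1 and 5.25 in replicate 3, with no Car12 count in replicate 2. Car4 per Car9 went from 80.9 to 216 in ON to 5.93 to 7.40 in OFF24 and 0.25 to 1.5 in OFF48. Car4 was chosen for its fall, so these ratios are given without a test.

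By the closeness of centred log2 CPM over the 9 libraries, measured as the root mean square difference (RMSD) among 7734 named genes with a mean of at least 10 CPM, the nearest genes to Car4 were Phgdh, Etv5, S100a6, Adam8 and Gvin1. Their RMSD was 1.46, 1.46, 1.48, 1.48 and 1.5 log2 units, so none matched the size of its fall. Phgdh, the first enzyme of serine synthesis, averaged 107 ± 10.6, 22.5 ± 2.74 and 4.66 ± 0.896 CPM (SD, n = 3) in the order ON, OFF24, OFF48, with a Pearson r to Car4 of 0.99 over 9 libraries. Etv5, an ETS transcription factor, went from 31.0 ± 4.24 to 3.09 ± 0.691 and 0.683 ± 0.362 CPM (r 0.96). S100a6, a small calcium-binding protein, stayed higher at 24 h, with 409 ± 45.6, 210 ± 8.64 and 15.1 ± 2.37 CPM (r 0.94). Adam8, a membrane metalloprotease of leukocytes, went from 67.2 ± 17.0 to 12.8 ± 1.40 and 3.62 ± 2.67 CPM (r 0.98), and Gvin1, a large GTPase, from 58.9 ± 7.48 to 16.2 ± 1.94 and 2.24 ± 0.781 CPM (r 0.98). Car12 was below the level for this ranking. Its RMSD was 1.75 (r 0.99), and only 9 of the 7734 genes were nearer to Car4. Car9 had an RMSD of 3.04 (r 0.42), with 1744 genes nearer. These are descriptions, since the points share the 3 groups. The 3' end of Phgdh matches 12 other annotated genes and that of Gvin1 matches 1, so their levels are uncertain.

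**Figure D4:**
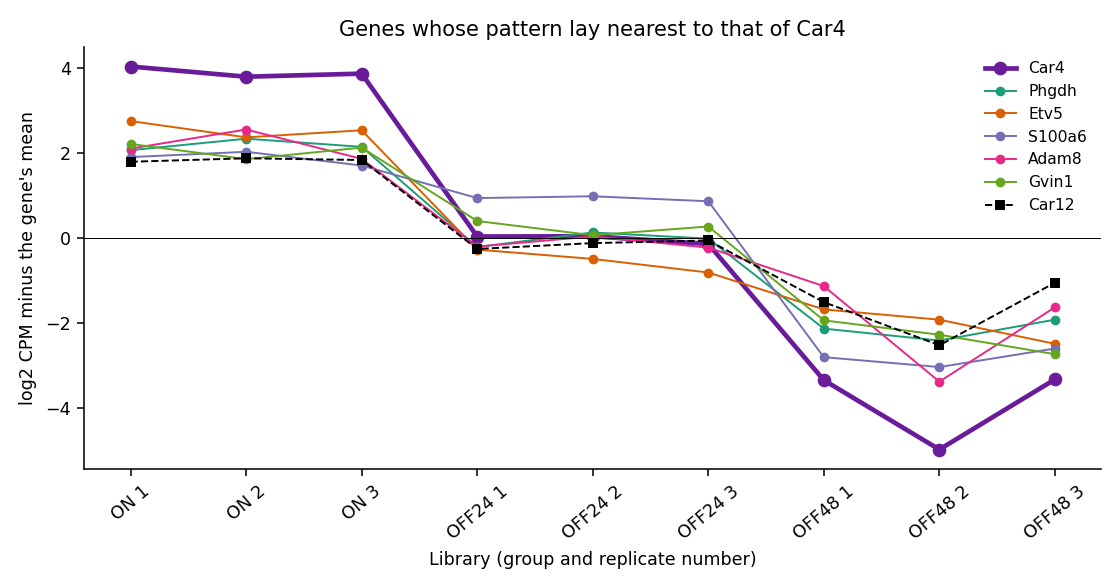
Log2 CPM of each gene minus its mean over the 9 libraries (vertical axis), by library, for Car4 (thick line), the 5 nearest genes and Car12 (dashed). All 7 step down from ON to OFF24 to OFF48, Car4 with the widest range, and S100a6 makes most of its fall after 24 h.

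Genes that work beside carbonic anhydrases were read from lists of genes by function. HIF targets are the family to which Car9 is usually counted. Of 19 tested, 13 rose and 1 fell at 24 h (median log2 0.66, against 0.03 over all genes, of which 17.8% were called higher and 17.4% lower). At 48 h 3 rose and 14 fell against ON (median log2 -1.60, against 0.01, with 23.4% of genes called higher and 23.9% lower). From OFF24 to OFF48 2 rose and 16 fell (median log2 -2.07, against 0.00, with 9.99% of genes called higher and 11.2% lower). Pdk1, which restrains pyruvate oxidation, went from 74.0 ± 11.4 CPM to 131 ± 11.6 and 18.3 ± 2.39 (SD, n = 3). Pgk1 and Aldoc, glycolytic enzymes, fell at 48 h against ON (log2 -1.60 ± 0.12 and -2.30 ± 0.15, edgeR adjusted p = 2.75e-09 and 3.21e-10). Ldha, lactate dehydrogenase A, fell as well (log2 -2.02 ± 0.10, edgeR adjusted p = 1.93e-11), and its 3' end matches 6 other annotated genes. The values of Car9, 0.24 at 24 h and -0.80 at 48 h, lay within the range of these genes, -0.63 to 1.27 and -2.71 to 1.44. That is common, since the 5th and 95th percentiles of all tested genes were -0.95 and 1.01 at 24 h and -1.35 and 1.27 at 48 h. Whether Car9 moves with the HIF targets was not tested. The values of Car12, -2.19 and -3.99, lay below all 19.

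**Figure D5:**
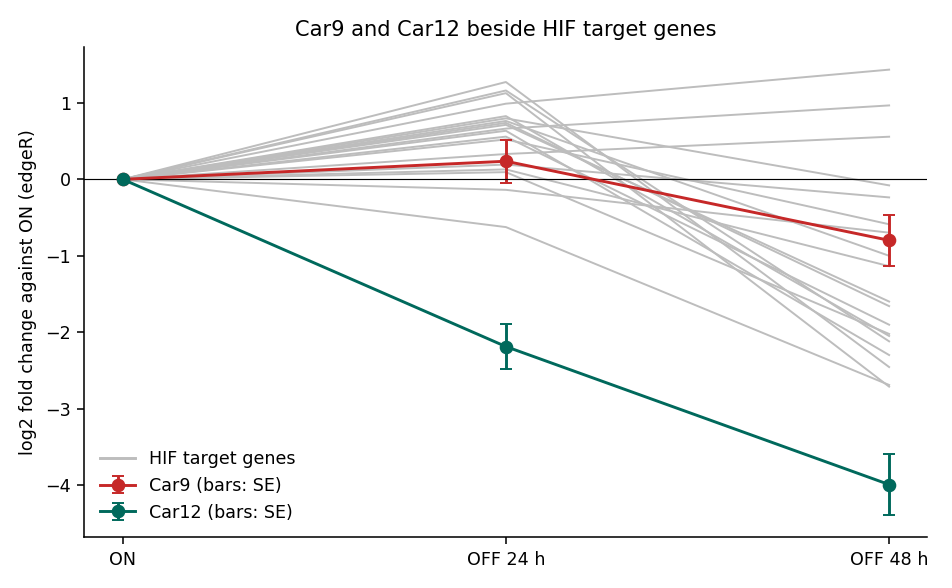
Log2 fold change against ON (vertical axis, edgeR) at 24 h and 48 h for 19 HIF target genes (grey), Car9 (red) and Car12 (green), with SE bars on both isozymes. Most HIF targets lie above 0 at 24 h and below it at 48 h. Car9 lies within their wide range at 0.24 and -0.80, which is common among tested genes. Car12 lies below them all at -2.19 and -3.99.

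Carriers of the products of the reaction gave a mixed picture. Of 7 tested bicarbonate and anion exchangers 1 rose and 1 fell at 24 h (median log2 0.10), and 2 rose and 1 fell at 48 h against ON (median 0.53), beside 17.8% of all genes called higher and 17.4% lower at 24 h and 23.4% and 23.9% at 48 h. Between OFF24 and OFF48 0 passed edgeR's threshold, beside 21.1% of all genes. Slc4a7, a sodium bicarbonate cotransporter, averaged 40 ± 2.57, 21.9 ± 2.47 and 15.4 ± 3.10 CPM (SD, n = 3) in ON, OFF24 and OFF48 and fell at both times (edgeR adjusted p = 0.000255 and 2.34e-06). Slc4a2, a chloride and bicarbonate exchanger, missed the threshold at 24 h (log2 0.36 ± 0.20, edgeR adjusted p = 0.166) and rose at 48 h (0.78 ± 0.20, 0.00286). Slc4a8, which also carries bicarbonate, rose at both times from a low level of 1.32 ± 0.533 CPM in ON (log2 1.46 ± 0.49 after 24 h, SE, and 1.97 ± 0.47 after 48 h, edgeR adjusted p = 0.0266 and 0.00196). Its ON mean was under the filter's minimum of 3.12 CPM, so it could enter the test only by being high in OFF cells. Slc4a5 was not called (log2 0.74 ± 0.37 at 48 h, edgeR adjusted p = 0.107).

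Of 9 tested proton and lactate carriers 3 rose and 2 fell at 24 h (median log2 -0.05), and 1 rose and 4 fell at 48 h against ON (median -0.14). From OFF24 to OFF48 1 rose and 4 fell (median -0.51). Of all genes 35.3%, 47.4% and 21.1% were called in either direction in these comparisons. The lactate carrier Slc16a1 averaged 33.1 ± 6.12, 11.4 ± 0.909 and 6.35 ± 0.963 CPM (SD, n = 3). Slc16a3, the other main lactate carrier, went from 306 ± 86.7 to 191 ± 27.5 and 81.5 ± 19.2 CPM. Both were called lower at each time (edgeR adjusted p = 3.14e-06 and 0.0186 at 24 h, 3.09e-08 and 1.26e-05 at 48 h). Bsg, the chaperone both need, rose first (0.55 ± 0.11 log2 units, SE, at 24 h, edgeR adjusted p = 0.000744) and was lower than in ON at 48 h (-0.90 ± 0.12, edgeR adjusted p = 3.70e-06). Hvcn1, a voltage-gated proton channel of phagocytes, went from 1.06 ± 0.484 to 3.70 ± 0.218 and 16 ± 3.40 CPM, a rise at both times (edgeR adjusted p = 0.00391 and 2.19e-08), and its 3' end matches the gene Tctn1. With an ON mean under the filter's minimum of 3.12 CPM, Hvcn1 could enter the test only by being high in OFF cells.

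Of 27 tested genes that make or attach the GPI anchor by which Car4 is held, 2 rose and 2 fell at 24 h (median log2 -0.10) and 4 rose and 5 fell at 48 h against ON (median -0.06). From OFF24 to OFF48 1 rose and 0 fell (median -0.01), beside 21.1% of all genes called in either direction. Pigk, the protease subunit of the transamidase that attaches the anchor, fell at both times (log2 -0.49 ± 0.13 and -0.54 ± 0.13, SE, edgeR adjusted p = 0.00580 and 0.00221). Pigyl was higher at 48 h by the test (0.84 ± 0.15, edgeR adjusted p = 0.000108), Pigv, a mannosyltransferase, rose at both times (0.90 ± 0.19 and 0.73 ± 0.20, 0.00122 and 0.00550), and Dpm1, whose 3' end matches the gene model Gm20716, fell at 48 h (-0.48 ± 0.12, 0.00360). Called genes in either direction made up 4 of 27 and 9 of 27 against ON, beside 35.3% and 47.4% of all genes.

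Of 17 tested zinc transporters and metallothioneins 4 rose and 2 fell at 24 h (median log2 0.07), and 5 rose and 3 fell at 48 h against ON (median 0.03). From OFF24 to OFF48 2 rose and 4 fell (median -0.03). The counts against ON, 6 of 17 and 8 of 17 in either direction, are at the share over all genes, 35.3% and 47.4%, and 21.1% of all genes were called between OFF24 and OFF48. The zinc importers Slc39a6 and Slc39a10 fell at 48 h against ON (log2 -1.26 ± 0.21 and -1.85 ± 0.26, SE, edgeR adjusted p = 6.98e-05 and 9.94e-06). The metallothionein Mt1, which binds zinc, averaged 296 ± 42.5, 523 ± 13.1 and 404 ± 31.9 CPM (SD, n = 3) and was called higher at both times (edgeR adjusted p = 1.06e-05 and 0.00210). The zinc carrier Slc39a11 rose by the later time (edgeR adjusted p = 0.000636, log2 0.82 ± 0.16, SE).

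Marker lists moved beside these genes. Of 9 myeloid markers, 7 were called higher at 24 h and 8 at 48 h against ON, beside 17.8% and 23.4% of all genes, and the summed level went from 2531 to 2605 CPM in ON to 4360 to 4731 in OFF24 and 5679 to 6262 in OFF48. Megakaryocyte markers, mostly Gp1bb, summed to 59.0 to 75.2, 42.6 to 51.8 and 71.5 to 88.5 CPM. Those of eosinophils, basophils and mast cells summed to 7.14 to 13.5 CPM in ON, 23.5 to 29.5 in OFF24 and 18.0 to 26.5 in OFF48, with 2 of 7 at 0 throughout. Those of endothelium summed to 25.4 to 34.2, 46.0 to 58.4 and 54.7 to 67.4 CPM, mostly Pecam1. Both tested members, Pecam1 and Emcn, were called higher at 48 h against ON (edgeR adjusted p = 4.30e-05 and 0.0243). Emcn averaged 0.562 ± 0.764 CPM in ON and 3.86 ± 5.31 in OFF48 (SD, n = 3), an SD above the mean in both. Under the filter's minimum in ON, Emcn could enter the test only through OFF cells, so its call is uncertain. The markers of osteoclasts, which use Car2, summed to at most 3.21 CPM. In bulk samples fewer cells of a type and less RNA per cell cannot be told apart, and the part of these shifts in the falls of Car4 and Car12 was not tested.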

How the data were processed

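Gene expression was measured in 9 libraries of the Lexogen QuantSeq 3' kit, grouped and numbered by their titles. Per the submitters' processing notes, the tools named include HISAT2 2.0.4, featureCounts, Subread 1.5.0-p3, cutadapt 1.5 and limma 3.42.2, and the build is mm10. The notes give no roles or order. The sources used here do not give the annotation, the strand setting or any filter. The deposited counts are whole read counts per gene symbol, not normalised. A second deposited table holds log2 values normalised by the authors with voom and limma, per its name, and served as an alternative.

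Tests used edgeR 4.0.16 (R 4.3.3). Low genes were removed by group with filterByExpr, libraries were scaled by TMM, a robust quasi-likelihood model was fitted to all 9 libraries, and p-values were adjusted by Benjamini-Hochberg over 10215 genes at 0.05. The SE is the size of the log2 fold change divided by the square root of F, and with few counts can be smaller than counting error. Alternatives were other scalings, no filter, DESeq2 1.42.0, limma-voom 3.58.1, the authors' values, fits to the groups compared, a replicate block and leaving out each library. The procedure was tested on simulated data. Replicates were distinct libraries, with a chi-square per degree of freedom of 1.99 to 6.99.

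The genes, lists and tests were chosen with earlier results of these data known. Named genes were all carbonic anhydrases, the 5 nearest to Car4 in RMSD of log2 CPM (prior count 2), up to 4 of each list with the smallest p at 48 h, and the carriers Slc4a2, Slc4a7, Slc16a1, Slc16a3 and Bsg. One further gene of the rule is not reported here. Positions come from GENCODE M21, and 3' ends were compared with BLAST 2.17.0.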

Additional observations from a re-analysis of the deposited data

Results flagged for a closer look

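Car9 and Car12 differed between the times without doxycycline by the direct test of OFF48 against OFF24. Car9 stood at log2 -1.03 and Car12 at -1.81 (edgeR adjusted p = 0.0315 and 0.0219). Both rest on few counts, 88 against 37 for Car9 and 25 against 6 for Car12, and both calls were lost when some single libraries were left out. No group had enough libraries to look for a sample that stands apart.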

How the results depend on the processing

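The numbers of genes called over the whole table were read under 18 alternative settings in 3 comparisons, which gave 54 values. All stayed within 1.5 times of the main fit. They ran from 2754 to 4200 for OFF24 against ON, 4164 to 5197 for OFF48 against ON and 1502 to 2701 for OFF48 against OFF24. Leaving out single libraries gave 2846 to 3900, 4180 to 4835 and 1506 to 2410. Car4 kept its direction in all 54 of its values, from log2 -4.02 to -3.88, -7.80 to -7.39 and -3.90 to -3.43. Car12 kept its direction in 53, and its calls against ON held in every fit run, with adjusted p of 6.49e-10 to 0.000210 at 24 h and 1.43e-17 to 5.64e-06 at 48 h. The fits share their libraries and are not independent support. Wherever the filter was used, Car12 could enter only by being high in ON. Between OFF24 and OFF48 its adjusted p ran from 0.00154 to 0.0785. In a fit to those groups alone it did not pass the filter and has no value. Car9 changed sign in OFF24 against ON without ON replicate 3, with log2 -0.0013 against 0.24, a value near 0 in both. Leaving out single libraries gave -0.0013 to 0.59 there. Its adjusted p ran from 0.142 to 0.998, from 0.0103 to 0.327 in OFF48 against ON and from 0.0135 to 0.145 in OFF48 against OFF24. For Car15 the adjusted p ran from 0.0136 to 0.302 in OFF24 against ON, from 2.87e-05 to 0.00540 in OFF48 against ON and from 0.0305 to 0.518 in OFF48 against OFF24. The cause of these changes was not tested. Of the 5 genes nearest to Car4, 4 or 5 were named under RLE or library-size scaling or a prior count of 0.5.

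Same-numbered libraries deviated together in part, with a correlation of -0.015 to 0.406 and 5 of 9 pairs over 0.1. Libraries of different numbers had correlations of -0.286 to 0.190, and 5 of 9 libraries correlated best with their own number. Replicate 2 stood out here, with 0.202, 0.406 and 0.177 between its own libraries and negative values in all its pairs with other numbers. ON replicate 2 also had a chi-square per degree of freedom of 6.66 and 6.99 within ON, against 2.10 for the other pair. Replicate 2 held the highest Car9 count of ON (48) and the highest Car15 count of OFF24 (16). It also held the lowest Car4 and Car12 counts of OFF48 (2 and 0). The main fit took no pairing, and whether same-numbered libraries share a batch was not tested. The fit with the replicate block called 4200, 5189 and 2701 genes in the order above and changed no call of a carbonic anhydrase. Depth limits the low levels, Car4 in OFF48 included, since a count of 0 in the shallowest library allows up to 2.25 CPM.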
